A study of Mus musculus with 24 samples.

Results

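The polypeptide GalNAc transferases are the Golgi enzymes that begin mucin-type O-glycans, and 10 of their genes, Galnt1, Galnt2, Galnt3, Galnt4, Galnt5, Galnt6, Galnt7, Galnt10, Galnt13 and Galnt14, were followed in mouse retina. They were taken by gene symbol from an Affymetrix array of glycobiology genes, on which each was measured by 1 probe set, that is 10 of 1246 probe sets and 10 of 909 named genes. Retinas came from P347S+ mice, labelled RP mutant, and from P347S- mice, labelled normal, aged 1, 2, 3 or 4 months, with 3 arrays in each of the 8 groups. The mutant mice are transgenic and carry a rhodopsin mutation that kills rod photoreceptors. Per the study's design text degeneration is scarcely visible at 1 month, and many rods have been lost by 4 months. The promoter of the transgene, the strain and whether an array held 1 animal or a pool are not given in the sources used here, and the sex of the mice is labelled unknown. The 3 arrays of a group are therefore labelled replicates, and p-values measure the spread between arrays, which may be partly technical.

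These transferases move N-acetylgalactosamine (GalNAc) from UDP-GalNAc onto serine or threonine of a protein passing through the Golgi. The result, a single GalNAc known as the Tn antigen, is then lengthened by other enzymes into core structures and capped with sialic acid. Members of the family differ in the sites they accept: some act first on bare peptide, while others prefer or need a peptide that already carries GalNAc and fill in neighbouring sites. In the retina the core disaccharide of these glycans is what peanut agglutinin stains in the matrix around cones.

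The start regions of 3 members on which the results turn are shown, Galnt10, which fell, Galnt13, which rose, and Galnt7, whose difference changed with age. Each line gives the 250 bases before the gene's start, 5′ to 3′ on the gene's own strand, from RefSeq on GRCm38.p6. Capitals mark matches on either strand to the motifs searched. The window of Galnt10 is chr11:57645192-57645441 on the plus strand, that of Galnt13 chr2:54436137-54436386 on the plus strand and that of Galnt7 chr8:57653056-57653305 on the minus strand.
Galnt10: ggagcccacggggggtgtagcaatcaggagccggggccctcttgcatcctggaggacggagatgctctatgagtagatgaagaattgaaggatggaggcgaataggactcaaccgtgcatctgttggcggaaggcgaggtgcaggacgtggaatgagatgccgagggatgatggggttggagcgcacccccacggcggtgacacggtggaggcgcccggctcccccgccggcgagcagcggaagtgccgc
Galnt13: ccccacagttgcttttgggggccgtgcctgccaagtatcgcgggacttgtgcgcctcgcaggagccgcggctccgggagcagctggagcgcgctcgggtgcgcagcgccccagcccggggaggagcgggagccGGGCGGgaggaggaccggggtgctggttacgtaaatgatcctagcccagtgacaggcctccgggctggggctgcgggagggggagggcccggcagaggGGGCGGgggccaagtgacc
Galnt7: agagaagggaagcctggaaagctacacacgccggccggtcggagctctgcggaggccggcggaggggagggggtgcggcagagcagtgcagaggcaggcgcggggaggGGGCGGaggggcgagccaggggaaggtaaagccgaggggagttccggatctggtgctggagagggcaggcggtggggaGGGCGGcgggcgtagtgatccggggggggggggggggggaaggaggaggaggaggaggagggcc
The motifs were the core bound by the photoreceptor factor CRX (TAATCC), the CCAAT box, the GC box (GGGCGG) and the TATA box (TATAAA), and no match to one overlapped a match to another in these windows. Galnt13 and Galnt7 each held 2 GC boxes and Galnt10 no match to any of the 4 motifs. Among 32851 RefSeq windows of the same length, 32.7% held a GC box, 33.8% a CCAAT box, 12.4% a TATA box and 6.25% the CRX core. The windows of Galnt10, Galnt13 and Galnt7 held 20, 23 and 19 CpG dinucleotides, above the upper quartile of all windows (16, median 6). Of the 10 members 7 had a window among these. Galnt1, Galnt2 and Galnt4 had none, so Galnt4, which also fell, could not be shown. No window of the 7 held a CRX core, CCAAT or TATA match, which says only that these letters are not in these windows.

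Rhodopsin was not among the named genes, so the genotype could not be checked through its transgene. Of 10 listed rod markers the array measured Gnb1 alone, which encodes a beta subunit of transducin. Its log2 signal was 12.62 to 13.04 on mutant arrays and 12.64 to 13.26 on normal arrays, and it fell by 0.21 ± 0.06 (adjusted p = 0.0121 by limma). That call did not pass after a second quantile normalization (adjusted p = 0.226) or without the 3 arrays whose log2 signal of the lens gene Grifin exceeded 10, called high-Grifin here (adjusted p = 0.0503), which were replicate 2 of both 2-month groups and replicate 1 of the normal 4-month group. All 4 of the 10 listed microglial markers that were measured (Csf1r, Cx3cr1, Adgre1 and Siglech) rose. They had 6 probe sets, with Siglech counted more than once. The mean signal of these probe sets was 5.03 to 5.87 on mutant arrays and 4.63 to 4.90 on normal arrays, with no overlap. Of 10 listed markers of reactive glia 5 were measured, and Gfap and Vim were not among them. Of the 5 measured, 4 rose (Cd44, Fgf2, Icam1 and Vcam1) and Lgals1 did not pass (adjusted p = 0.673 by limma). Of all probe sets 13.8% were higher over the 4 ages. The mean of the 5 markers was 6.21 to 7.03 on mutant arrays and 5.67 to 6.45 on normal arrays, with overlap. The part of these cells in the results below was not tested, and in whole retina fewer cells of a type and less RNA per cell cannot be told apart.

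The members were compared on the deposited log2 signals with limma, fitted to all 1246 probe sets. Differences are mutant minus normal with their standard errors, and p-values were adjusted by the Benjamini-Hochberg method over all probe sets, with a threshold of 0.05. Over the 4 ages 1 of the 10 members rose (Galnt13), 2 fell (Galnt4 and Galnt10) and 7 did not pass. Of all probe sets 22.6% passed in this comparison, 13.8% higher and 8.83% lower, so the family's share lay near the array's. Of all calls 61.0% were higher in mutant retinas as deposited, and 50.6% after a second quantile normalization. The median difference of the 10 members was -0.03 and that of all probe sets -0.03. At single ages the members that passed numbered 0 at 1 month (background 0.321%), 1 at 2 months (3.45%), 3 at 3 months (12%) and 3 at 4 months (12.9%). At 1 month 2 members and 115 of all probe sets had an unadjusted p under 0.05, and 4 of all probe sets passed.

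**Figure D1:**
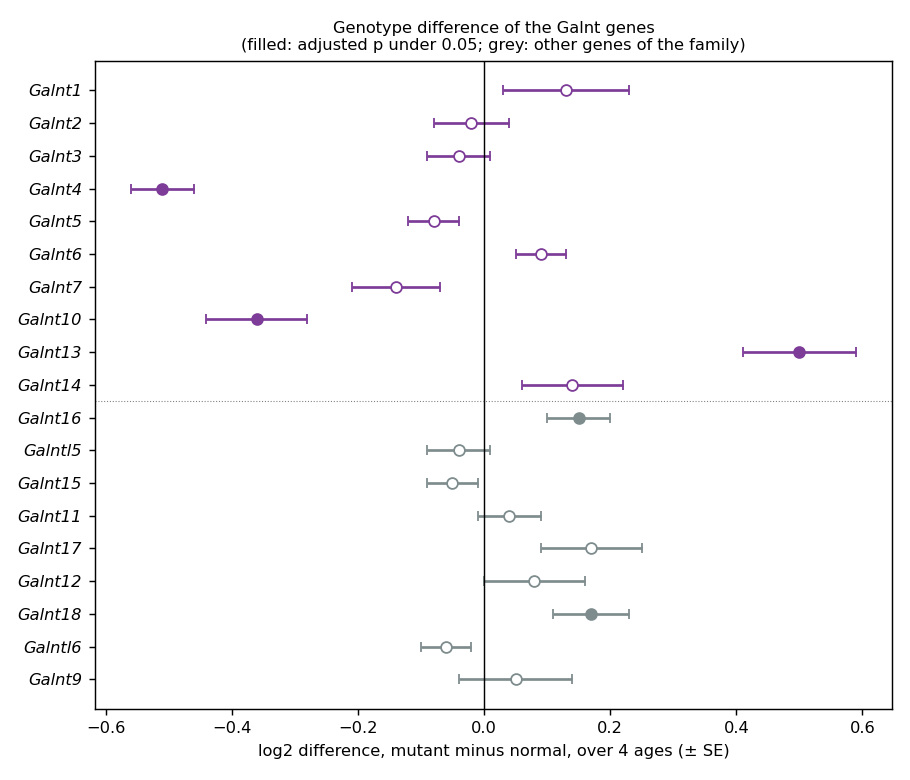
Log2 difference, mutant minus normal, over the 4 ages for the 10 members (purple) and the 9 other genes of the family on the array (grey), with standard errors and 12 arrays a genotype; filled points have an adjusted p under 0.05. Galnt4 (-0.51) and Galnt10 (-0.36) lie furthest left and Galnt13 (0.5) furthest right, with the other members between -0.14 and 0.14.

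The members are described by acceptor preference as known from enzyme work, and no difference between these groups was tested. Of the 3 that favour acceptors already carrying GalNAc, 2 fell over the 4 ages (Galnt4 and Galnt10) and Galnt7 did not pass. Of all probe sets 8.83% were lower. The 3 genes were chosen with earlier results of these data known, and no result for them as a group can be read. The family's other genes on the array were not sorted this way. Galnt4 is known from human and mouse work for adding GalNAc to partly glycosylated mucin peptides and to the selectin ligand PSGL-1. Its log2 signal was 9.77, 9.86 and 9.84 in mutant retinas at 1 month, against 9.89, 9.90 and 9.89 in normal retinas. At 2 months it was 9.52, 9.43 and 9.49 in mutant retinas, against 9.91, 9.98 and 10.01 in normal retinas. No mutant array reached a normal array at either age, although the gap at 1 month was small. At 3 months it was 9.65, 9.30 and 9.13 in mutant retinas, against 9.99, 10.21 and 10.21 in normal retinas. At 4 months it was 9.56, 9.33 and 9.60 in mutant retinas, against 10.01, 10.32 and 10.29 in normal retinas. The genotypes were thus apart at each of the 4 ages, mutant below normal, which held for 0.401% of all probe sets.

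Over the 4 ages Galnt4 fell by 0.51 ± 0.05 on the log2 scale, 1.42-fold (adjusted p = 7.91e-07 by limma). By age the difference was -0.07 ± 0.11 at 1 month (adjusted p = 0.935), -0.48 ± 0.11 at 2 months (0.015), -0.78 ± 0.11 at 3 months (0.000405) and -0.71 ± 0.11 at 4 months (0.00019). Ordered by mean, all 4 normal groups (9.89 to 10.21) stood above all 4 mutant groups (9.36 to 9.82). Among neighbours in that order, the normal groups at 4, 3 and 2 months overlapped in turn, as did the mutant groups at 4, 2 and 3 months. The 4-month level in mutant retinas minus that at 1 month was -0.32 ± 0.11 (adjusted p = 0.118), and in normal retinas 0.31 ± 0.11 (0.339). The change of the genotype difference with age did not pass for this gene (F test, adjusted p = 0.0767), but did without normal 2-month replicate 1 (0.0439) or mutant 3-month replicate 1 (0.0282). At 2 months same-numbered mutant and normal arrays deviated together, most of all those numbered 2 (r = 0.662), which were both high-Grifin arrays. The labels name no pairing, and the reason was not tested. With the number as a block the 2-month adjusted p was 0.06. It was also above the threshold after a second quantile normalization (0.0597), without the high-Grifin arrays (0.134), and without mutant replicate 2 (0.0684), normal replicate 2 (0.0531) or normal replicate 3 (0.0771) of that age. The Galnt4 locus overlaps Poc1b in the RefSeq annotation, and whether the probe set reads both genes was not tested.

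Galnt10 takes acceptors that already hold GalNAc, as human enzyme work has shown. Its log2 signal was 9.32, 9.42 and 9.35 in mutant retinas at 1 month, against 9.41, 9.29 and 9.72 in normal retinas, and the groups overlapped. At 2 months it was 9.40, 9.16 and 9.37 in mutant retinas, against 9.50, 9.78 and 10.06 in normal retinas. At 3 months it was 9.12, 8.69 and 9.29 in mutant retinas, against 9.71, 9.52 and 9.45 in normal retinas. Every mutant array was below every normal array at these ages and again at 4 months. There it was 9.38, 9.26 and 8.84 in mutant retinas, against 9.50, 9.62 and 9.39 in normal retinas. Separation downward at 3 or more ages was seen in 2.33% of all probe sets. Galnt10 fell by 0.36 ± 0.08 over the 4 ages, 1.29-fold (adjusted p = 0.00224 by limma). The difference was -0.11 ± 0.16 at 1 month, -0.47 ± 0.16 at 2 months (adjusted p = 0.113), -0.52 ± 0.16 at 3 months (0.0376) and -0.34 ± 0.16 at 4 months (0.191). All 4 normal groups had higher means (9.47 to 9.78) than the mutant groups (9.03 to 9.36), while every pair of neighbours in that order overlapped. The 2-month difference passed after a second quantile normalization (adjusted p = 0.0368) and without normal replicate 1 (-0.611, 0.0375). Leaving out other single arrays took it as far as -0.334, with adjusted p up to 0.513 by limma. The 3-month call did not pass without the high-Grifin arrays (0.0529), without mutant replicate 2 of that age (-0.35, adjusted p = 0.201), the lowest array, nor without normal replicate 1 (0.126) or normal replicate 2 (0.0848).

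**Figure D2:**
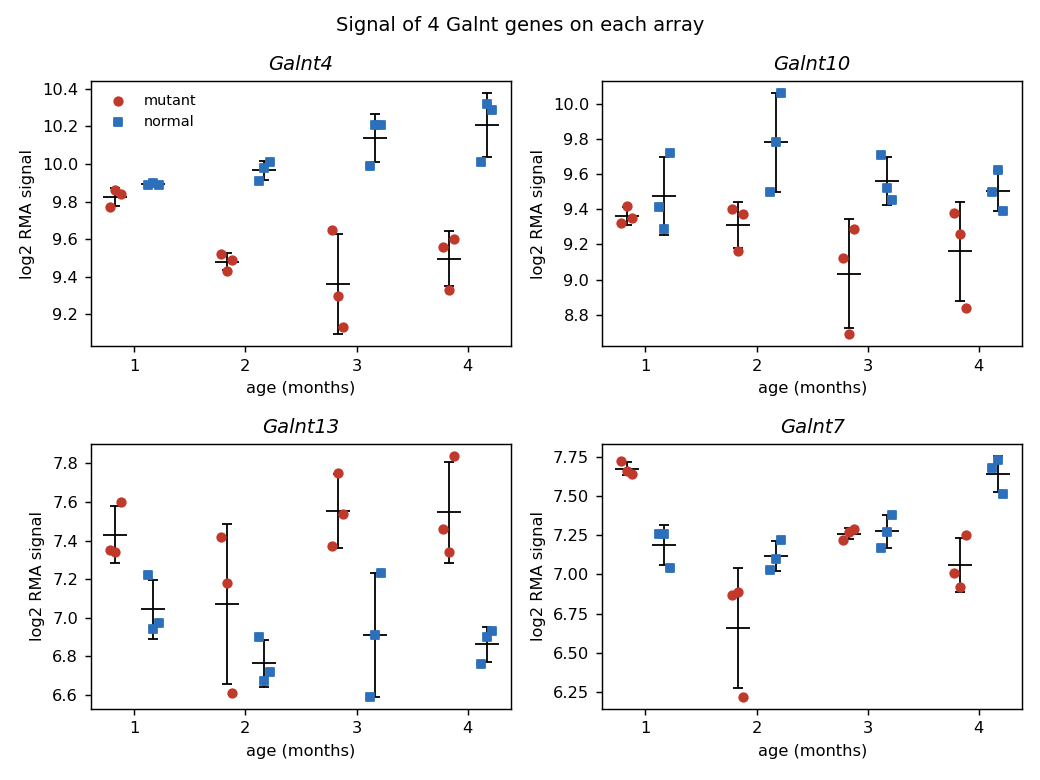
Log2 RMA signal on each array (points: red mutant, blue normal) of Galnt4, Galnt10, Galnt13 and Galnt7 by age in months, with the group mean (long line) and SD (bars), 3 arrays a group. Mutant points of Galnt4 lie below normal points at each age, whereas Galnt7 lies above normal at 1 month and below at 2 and 4 months.

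Galnt7 acts only on glycopeptides in published enzyme assays. Its log2 signal was 7.72, 7.66 and 7.64 in mutant retinas at 1 month, against 7.26, 7.26 and 7.04 in normal retinas. At 2 months it was 6.87, 6.89 and 6.22 in mutant retinas, against 7.03, 7.10 and 7.22 in normal retinas. The mutant arrays were thus all above the normal ones at 1 month and all below at 2 months, and separation in both directions at different ages occurred in 3.77% of all probe sets. At 3 months it was 7.22, 7.27 and 7.29 in mutant retinas, against 7.17, 7.27 and 7.38 in normal retinas. At 4 months it was 7.01, 6.92 and 7.25 in mutant retinas, against 7.68, 7.73 and 7.51 in normal retinas. The groups coincided at 3 months and were apart again, mutant below normal, at 4 months. The difference was 0.49 ± 0.13 at 1 month (adjusted p = 0.111), -0.46 ± 0.13 at 2 months (0.0555), -0.01 ± 0.13 at 3 months (0.956) and -0.58 ± 0.13 at 4 months (0.00519, 1.49-fold lower). The 1-month difference passed without mutant 2-month replicate 3 (adjusted p = 0.00793), and the 2-month one without mutant 2-month replicate 1 (0.0346) or 2 (0.0428) or mutant 4-month replicate 3 (0.045). Other omissions weakened both. With 1 array left out the 1-month difference ran between 0.413 and 0.526 (adjusted p up to 0.357 by limma). The 2-month one ran between -0.571 and -0.235 (adjusted p up to 0.235). Averaged over the 4 ages the differences nearly cancelled (-0.14 ± 0.07, adjusted p = 0.132).

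Galnt7 was the 1 member of 10 whose genotype difference changed with age (F test, adjusted p = 0.0344), against 0.321% of all probe sets. Its 4-month difference less its 1-month difference was -1.06 ± 0.19 (adjusted p = 0.0152, background 0.241%). In mutant retinas it fell by 0.61 ± 0.13 between 1 and 4 months (adjusted p = 0.0166, background 2.65%). In normal retinas the same difference was 0.45 ± 0.13 (adjusted p = 0.262). No probe set passed there by limma (background 0.0%), while 92 of all probe sets and 2 members had an unadjusted p under 0.05. With the replicate number as a block the F test's adjusted p was 0.156 and that of the 4-month minus 1-month difference 0.0597. Leaving out 1 array took the F test's adjusted p above the threshold for 10 of 24 arrays: mutant 1-month replicates 1 (0.0834) and 2 (0.0651), normal 1-month replicates 1 (0.0565) and 3 (0.0988), normal 2-month replicates 2 (0.0895) and 3 (0.0515), normal 3-month replicate 1 (0.0688), and normal 4-month replicates 1 (0.058), 2 (0.0669) and 3 (0.0564). The 4-month minus 1-month difference lost its call without the high-Grifin arrays (adjusted p = 0.0561), normal 1-month replicate 3 (0.0527) or normal 4-month replicate 2 (0.0748). The change in mutant retinas lost its call without mutant 1-month replicate 1 (0.066) or 2 (0.0631) or mutant 4-month replicate 1 (0.0537) or 2 (0.0785).

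**Figure D3:**
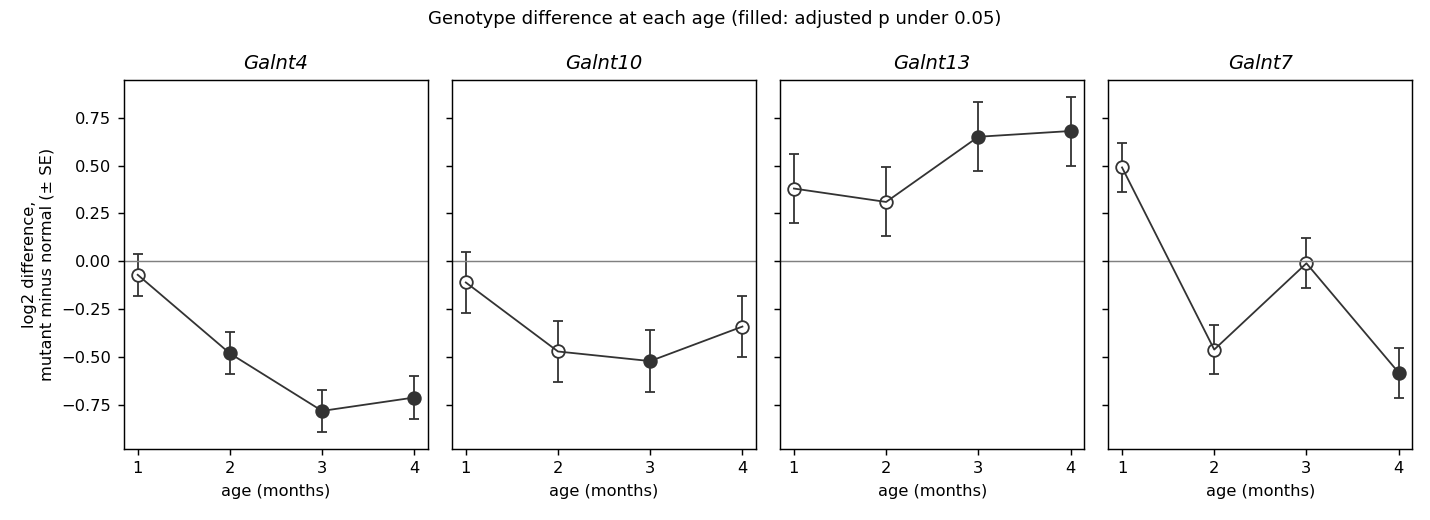
Log2 difference, mutant minus normal, at each age in months for Galnt4, Galnt10, Galnt13 and Galnt7, with standard errors and 3 arrays a group; filled points have an adjusted p under 0.05. Galnt4 lies at -0.07 at 1 month and -0.71 at 4 months, Galnt13 is above 0 at all ages, and Galnt7 runs between 0.49 at 1 month and -0.58 at 4 months.

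Of the 7 members that start on bare peptide 1 rose over the 4 ages (Galnt13), a share close to the 13.8% of all probe sets that were higher, and the other 6 did not pass. Galnt13 is the close relative of Galnt1 that neurons express, and it contributes to the Tn antigen of mouse brain. Its log2 signal was 7.35, 7.34 and 7.60 in mutant retinas at 1 month, against 7.22, 6.94 and 6.97 in normal retinas. At 2 months it was 7.42, 7.18 and 6.61 in mutant retinas, against 6.90, 6.67 and 6.72 in normal retinas. The genotypes were apart at 1 month, mutant above normal, and overlapped at 2 months, where mutant replicate 3 was the lowest array. Separation in either direction was seen in 22.1% of all probe sets at 1 month and in 17.4% at 2 months. At 3 months it was 7.37, 7.75 and 7.54 in mutant retinas, against 6.59, 6.91 and 7.23 in normal retinas. At 4 months it was 7.46, 7.34 and 7.84 in mutant retinas, against 6.76, 6.90 and 6.93 in normal retinas. Mutant arrays were again all above normal ones at these ages, and upward separation at 3 or more ages was seen in 5.78% of all probe sets.

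Galnt13 rose by 0.5 ± 0.09 over the 4 ages, 1.42-fold (adjusted p = 0.000272 by limma). The difference was 0.38 ± 0.18 at 1 month (adjusted p = 0.524), 0.31 ± 0.18 at 2 months (0.443), 0.65 ± 0.18 at 3 months (0.0237) and 0.68 ± 0.18 at 4 months (0.0127). The 4 mutant groups had the higher means (7.07 to 7.55, against 6.77 to 7.04 in normal groups), with overlap between every pair of neighbours. The 3-month call did not pass without mutant replicate 2 (0.0971) or 3 (0.0632) or normal replicate 1 (0.118) or 2 (0.0644) of that age, and the 4-month call did not pass without mutant replicate 3 (0.0725) or normal replicate 1 (0.0551). After a second quantile normalization neither passed (0.0763 at 3 months and 0.0512 at 4 months), and without the high-Grifin arrays the 4-month call did not (0.0672). The probe set of Galnt13 has the suffix that marks probes which other transcripts may share.

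The probe set of Galnt1, a widely expressed enzyme, gave 7.59, 7.30 and 7.41 in mutant retinas at 1 month, against 7.33, 7.20 and 6.81 in normal retinas. At 3 months it gave 7.12, 7.50 and 7.66 in mutant retinas, against 6.67, 6.86 and 6.96 in normal retinas, with no overlap. The 3-month difference was 0.6 ± 0.2 (adjusted p = 0.0574 by limma), and at that age 32.6% of all probe sets were separated in one direction or the other. It passed with the replicate number as a block (adjusted p = 0.0251). It also passed without mutant 2-month replicate 1 (0.0442) or 3 (0.0239), mutant 3-month replicate 1 (0.751, 0.0297) or mutant 4-month replicate 3 (0.0481). The other 20 of 24 single omissions gave no call. They took the difference as low as 0.483, with adjusted p up to 0.197 by limma. A second quantile normalization and array weights gave no call either. At 2 months the probe set gave 7.10, 6.90 and 6.20 in mutant retinas, against 7.08, 6.94 and 6.74 in normal retinas. At 4 months it gave 6.84, 6.85 and 7.26 in mutant retinas, against 7.52, 6.99 and 7.11 in normal retinas. The groups overlapped at both of these ages, where the differences were -0.19 ± 0.2 and -0.22 ± 0.2. Over the 4 ages the difference was 0.13 ± 0.1 (95% interval -0.08 to 0.34, adjusted p = 0.383).

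The 2-month mutant replicate 3 held the lowest of the 24 signals for Galnt1 (6.20) and Galnt7 (6.22), and for Galnt13 (6.61) the lowest mutant signal. That array was the lowest of 24 for 4.17% and the highest for 11.6% of all probe sets. Without it the difference over the 4 ages was 0.194 for Galnt1 (adjusted p = 0.0967), -0.084 for Galnt7 (0.174) and 0.561 for Galnt13 (2.33e-05).

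Galnt2, whose human and mouse enzyme modifies apolipoproteins and other lipid-regulating proteins, stayed between 8.42 and 8.92 on the 24 arrays. Its signal was 8.76, 8.82 and 8.74 in mutant retinas at 1 month, against 8.76, 8.47 and 8.90 in normal retinas. At 4 months it was 8.88, 8.66 and 8.42 in mutant retinas, against 8.75, 8.82 and 8.53 in normal retinas. The genotypes overlapped at all 4 ages and the difference over them was -0.02 ± 0.06 (95% interval -0.14 to 0.11, adjusted p = 0.865 by limma). Its sign turned positive when each array was centred on its median (0.009), so no direction can be read for this gene.

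Galnt14, which in human cancer cells glycosylates death receptors for TRAIL, gave 6.55, 6.27 and 5.78 in mutant retinas at 4 months, against 5.73, 6.15 and 5.98 in normal retinas. The mutant mean was the higher at each of the 4 ages, but the arrays overlapped each time. Its difference over the 4 ages was 0.14 ± 0.08 (95% interval -0.01 to 0.3, adjusted p = 0.174 by limma). Without mutant 4-month replicate 3, its lowest mutant array, this was 0.196 (adjusted p = 0.0281), and the 4-month difference was 0.459 (0.0256). These were the upper ends when 1 array was left out. The lower ends were 0.099 over the 4 ages and 0.072 at 4 months, and adjusted p reached 0.307 and 0.842 by limma.

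Galnt6, a relative of Galnt3 known in human tumours for glycosylating fibronectin, gave 4.92, 5.04 and 5.0 in mutant retinas at 4 months, against 4.69, 4.88 and 4.82 in normal retinas. The arrays were apart at that age, where 30.0% of all probe sets were, and overlapped at the other ages. The difference was 0.19 ± 0.08 at 4 months (adjusted p = 0.127 by limma) and 0.09 ± 0.04 over the 4 ages (0.103). With each array centred on its median the difference over the 4 ages was 0.114 (adjusted p = 0.0239) and at 4 months 0.224 (0.0374). That centring also moved the median difference of all probe sets from -0.035 to -0.009. Without each array in turn the difference over the 4 ages never passed (adjusted p between 0.0518 and 0.179 by limma).

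Galnt5 gave 3.22, 3.30 and 3.19 in mutant retinas at 1 month, against 3.33, 3.38 and 3.40 in normal retinas. At 4 months it gave 3.23, 3.21 and 3.28 in mutant retinas, against 3.29, 3.39 and 3.36 in normal retinas. Mutant arrays were below normal ones at these ages and overlapped at 2 and 3 months. The 4-month gap was small (3.28 against 3.29). Of all probe sets 22.1% were separated in one direction or the other at 1 month and 30.0% at 4 months. The difference over the 4 ages was -0.08 ± 0.04 (adjusted p = 0.111 by limma). It passed without mutant 2-month replicate 3 (-0.103, adjusted p = 0.0354) and without normal 3-month replicate 3 (-0.102, adjusted p = 0.0437). Leaving out other single arrays never gave a call and took it as far as -0.065, with adjusted p up to 0.206 by limma.

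Galnt3, whose enzyme protects the phosphate hormone FGF23 from cleavage, gave 2.32 to 2.63 on mutant arrays and 2.32 to 2.69 on normal arrays. The genotypes overlapped at all 4 ages, and the difference over the 4 ages was -0.04 ± 0.05 (95% interval -0.14 to 0.06, adjusted p = 0.562 by limma). The mean signals of Galnt3 (2.47) and Galnt5 (3.31) lay under the array's 25th percentile of 3.83, and no detection call was at hand to tell them from background. The other 8 members were above that filter.

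**Figure D4:**
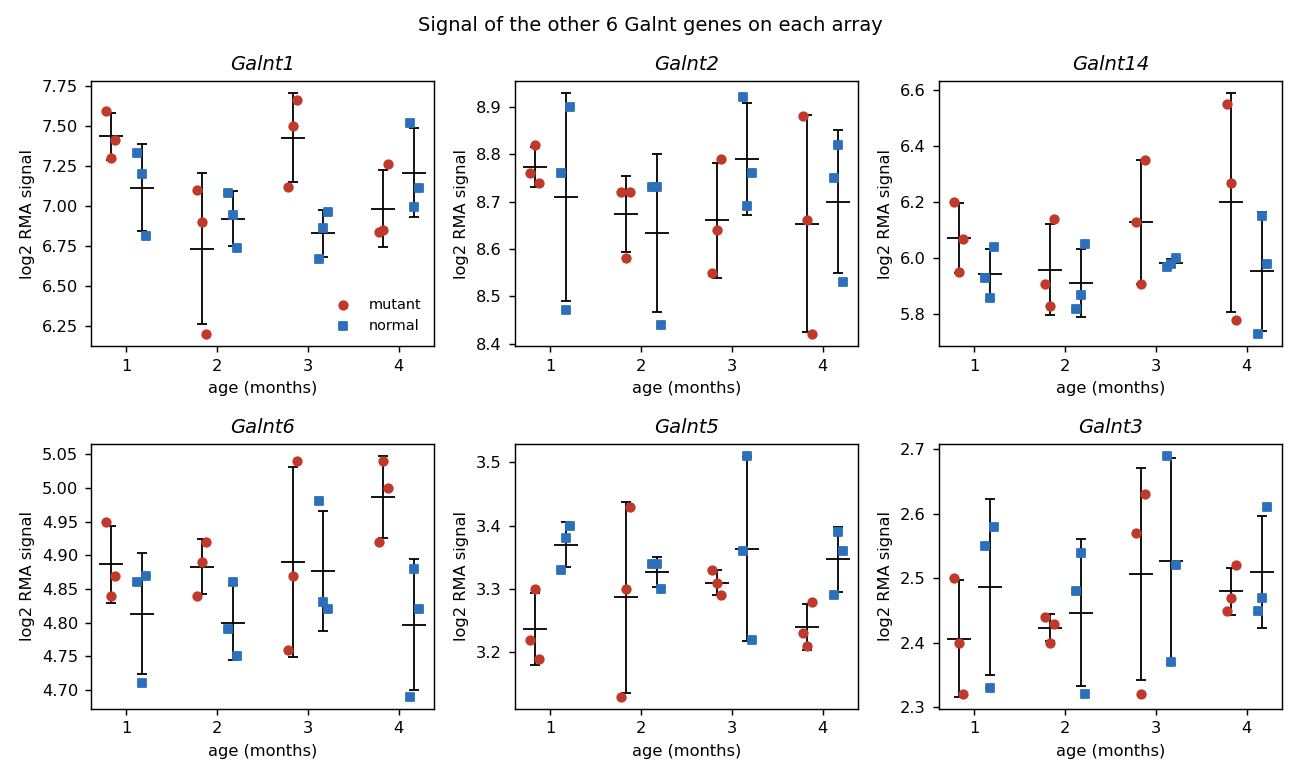
Log2 RMA signal on each array (points: red mutant, blue normal) of Galnt1, Galnt2, Galnt14, Galnt6, Galnt5 and Galnt3 by age in months, with the group mean (long line) and SD (bars), 3 arrays a group. Mutant and normal points overlap at most ages, with Galnt1 at 3 months and Galnt6 at 4 months among the exceptions.

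The 9 other genes of the family on the array were Galnt9, Galnt11, Galnt12, Galnt15, Galnt16, Galnt17, Galnt18, Galntl5 and Galntl6. Over the 4 ages 2 of them rose, 0 fell and 7 did not pass, with a median difference of 0.05 beside -0.03 for all probe sets. The array's shares were 13.8% higher and 8.83% lower. Galnt18 was 0.17 ± 0.06 (adjusted p = 0.0475 by limma) and Galnt16 was 0.15 ± 0.05 (0.0496). Galnt18 passed under 8 of 33 alternatives and Galnt16 under 9 of 33; with a replicate block their adjusted p was 0.0673 and 0.0654. None passed at any single age.

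The enzymes on either side of the GalNAc step were measured as well. Of 9 genes listed for the supply of UDP-GalNAc 8 were measured, 0 rose, 1 fell and 7 did not pass (median -0.07). Over the whole array 13.8% of probe sets were higher and 8.83% lower. The 1 that fell was Gfpt1, the enzyme that commits glucose to hexosamine synthesis, whose signal was 4.40 to 4.90 on mutant arrays and 4.53 to 5.02 on normal arrays. Its difference was -0.21 ± 0.05 over the 4 ages (adjusted p = 0.00319 by limma), -0.01 at 1 month and -0.34 at 4 months.

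Of 14 genes listed for core formation and sialic acid capping 13 were measured, 1 rose, 2 fell and 10 did not pass (median -0.04). Beside them, 13.8% of all probe sets were higher and 8.83% lower. St3gal1, which caps the core disaccharide with sialic acid, had a log2 signal of 9.08 to 9.78 on mutant arrays and 9.61 to 10.12 on normal arrays. It fell by 0.34 ± 0.07 over the 4 ages (adjusted p = 0.0015 by limma). Taken over all ages the genotypes overlapped. St6galnac2, which adds sialic acid to the GalNAc at the base of the glycan, gave 8.35 to 9.01 on mutant arrays and 8.67 to 9.66 on normal arrays. It fell by 0.3 ± 0.06 (adjusted p = 0.00137 by limma), and was 0.04 at 1 month and -0.47 at 2 months. Gcnt1, which branches the core, had 2 probe sets that disagreed: 1 rose by 0.24 ± 0.07 (adjusted p = 0.0175 by limma) and the other gave -0.03 ± 0.04 (0.658). The core galactosyltransferase C1galt1 and its chaperone C1galt1c1, which act directly after the GalNAc transferases, were among those that did not pass, with adjusted p of 0.626 and 0.708.

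**Figure D5:**
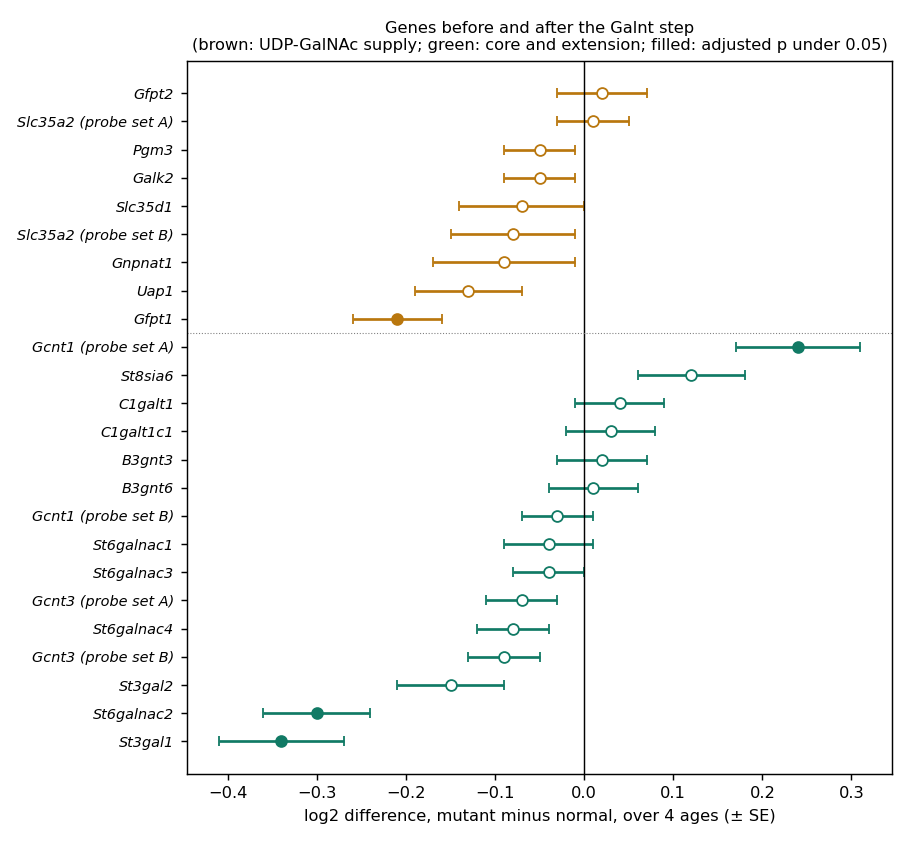
Log2 difference, mutant minus normal, over the 4 ages with standard errors for probe sets of UDP-GalNAc supply (brown) and of core formation and capping (green), 12 arrays a genotype; filled points have an adjusted p under 0.05. St3gal1 (-0.34), St6galnac2 (-0.3) and Gfpt1 (-0.21) lie lowest and 1 of the 2 Gcnt1 probe sets (0.24) highest.

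Of 20 genes listed as proteins that carry dense O-GalNAc glycans 13 were measured, 2 rose, 0 fell and 11 did not pass (median -0.06). The share of all probe sets was 13.8% higher and 8.83% lower. Glycam1, a mucin-like selectin ligand, rose by 2.21 ± 0.27 (adjusted p = 4.19e-06 by limma), with signals of 5.22 to 7.53 on mutant arrays and 3.45 to 5.14 on normal arrays. Cd34, a sialomucin of vessels, rose by 0.32 ± 0.07 (adjusted p = 0.00282 by limma), with 4.85 to 5.93 on mutant arrays and 4.76 to 5.43 on normal arrays. Of the 9 vessel and pericyte markers listed 4 were measured, Cd34 among them, and 2 rose, beside 13.8% of all probe sets. The mean of the 4 was 5.19 to 5.87 on mutant arrays and 5.15 to 5.50 on normal arrays. The part of vessel content in these values was not tested.

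The genes whose patterns were nearest to the 3 members that moved were found by the root mean square difference of centred log2 signals over the 24 arrays. Nearest to Galnt4 (0.316 around its own mean) were the Notch ligand Jag1 at 0.141, Fryl at 0.177 and the phospholipase A2 receptor Pla2r1 at 0.191. Their differences over the 4 ages were -0.43 ± 0.05, -0.31 ± 0.03 and -0.55 ± 0.05. Nearest to Galnt10 (0.279 around its own mean) were Angptl6 at 0.148, the lysosomal sphingomyelinase Smpd1 at 0.152 and the glycoprotein folding sensor Uggt1 at 0.155. The differences of these 3 were -0.28 ± 0.06, -0.14 ± 0.07 and -0.26 ± 0.08. By limma Smpd1 did not pass (adjusted p = 0.159), nor did Uggt1 without the high-Grifin arrays (0.0607). Nearest to Galnt13 (0.354 around its own mean) were the galactosyltransferases B3galt1 at 0.148 and B4galt6 at 0.194 and the fucosyltransferase Fut9 at 0.196, with differences of 0.54 ± 0.06, 0.35 ± 0.09 and 0.29 ± 0.06. After a second quantile normalization B4galt6 did not pass (adjusted p = 0.0642 by limma). All these genes were picked for a pattern like that of a member that moved. Their genotype differences largely follow from that choice and give no separate support. The distances describe arrays that share RNA and scaling, and were not tested.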

How the data were processed

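Total RNA (Trizol) of 24 retinal samples was hybridised as biotinylated cRNA, per the labels' protocols. The authors deposited log2 signals from RMA, per the submitters' processing notes; its version and settings are not given in the sources used here. They ran from 1.9 to 14.17, with array medians of 5.15 to 5.34, and were not scaled again. The number of arrays limits the precision.

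Probe sets were named through RefSeq transcript accessions (963 of 1246 matched 909 genes, 283 stayed unnamed). One mean per genotype and age was fitted to all arrays and probe sets with limma 3.58.1 in R 4.3.3 (lmFit, eBayes, 2-sided, Benjamini-Hochberg over 1246 probe sets). Errors are standard errors of limma's estimate. Exact tests of 3 against 3 arrays cannot go below p = 0.1. The fit was tested on simulated data. Promoters were searched in Python 3.11.15. Scaling, filter, fit, array weights, replicate block, tissue covariates, arrays used and threshold were varied.

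All 10 members were named whatever their test, with the members of each pathway list that passed and the 3 genes most like each member that passed. The C1galt1 pair and listed rod, microglial and reactive glia markers were added. The members and lists were chosen with earlier results of these data known. Same-numbered mutant and normal arrays correlated in their deviations at 2 months (r of 0.245 to 0.662 for 3 pairs) but not at other ages (-0.03 to 0.083); the numbers come from the sample titles.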

Additional observations from a re-analysis of the deposited data

Results flagged for a closer look

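The genotype difference of Galnt7 passed the test for change with age in the fit to all 24 arrays. The F test across ages gave an adjusted p of 0.0344 (limma), and the 4-month difference less the 1-month difference was -1.06 ± 0.19 on the log2 scale. With the replicate number as a block neither passed (adjusted p = 0.156 and 0.0597), and the F test lost its call for 10 of the 24 arrays left out singly. Over all 24 of these omissions its adjusted p ran between 0.00093 and 0.0988. Mutant arrays were above all normal arrays at 1 month and below all of them at 2 and 4 months. The cause was not tested.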

How the results depend on the processing

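Over the 4 ages Galnt4, Galnt10 and Galnt13 kept direction and call under every alternative run and without each array in turn, with adjusted p of at most 3.47e-06, 0.00529 and 0.000823 without 1 array. Calls at single ages moved more. The number of members passing at 1 month was 1 (Galnt7) with array weights, with only the arrays compared, and without both arrays numbered 3 of 2 months, a setting added after seeing the data. At 2 months it was 1 but Galnt10 (0.0368) in place of Galnt4 (0.0597) after quantile normalization again, and 2 (Galnt4 and Galnt7) without probe sets under the 25th percentile. It was 0 there with only the arrays compared, the replicate block, the 3 high-Grifin arrays left out, Grifin and Dcn as covariates, the 2-month arrays alone with the replicate block (also added after seeing the data), both arrays numbered 3 left out, and a threshold of 0.01. At 3 months it was 1 (Galnt4) with only the arrays compared, with the covariates and at 0.01. At 4 months Galnt13 was lost after quantile normalization (0.0512) and without the high-Grifin arrays (0.0672). For the F test it was 0 with quantile normalization again (Galnt7 at 0.0526), the replicate block (0.156), the high-Grifin arrays left out (0.105), the covariates (0.118) and at 0.01, and 2 (Galnt4 and Galnt7) with array weights. Between 4 months and 1 month it was 3 with array weights and 0 at 0.01 in mutant retinas, and 2 with array weights in normal retinas. The replicate block also added Galnt1 at 3 months (adjusted p = 0.0251, 4 members in all) and left the counts over the 4 ages, at 1 and 4 months and for ageing within each genotype as they were. Without each array in turn the counts ran between 3 and 4 over the 4 ages, 0 and 1 at 1 month, 0 and 2 at 2 months, 1 and 4 at 3 months, 2 and 3 at 4 months, 0 and 2 for the F test, 0 and 1 for mutant ageing and 0 and 0 for normal ageing. Causes were not tested.

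Galnt2 turned positive with arrays centred (0.009) and without the high-Grifin arrays (0.014), and ran between -0.047 and 0.012 without each array. Galnt7 passed over the 4 ages with quantile normalization (-0.23, adjusted p = 0.0355). Scaling moved the median of all probe sets between -0.035 and -0.009, and the higher share of all calls was 61.0% as deposited, 70.3% centred and 50.6% after quantile normalization. Galnt3 and Galnt5 lay under the 25th percentile of signal, where background could not be told apart.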
